A study of Homo sapiens with 12 samples.

Results

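MT-CO1, MT-CO2 and MT-CO3 are the mt-mRNAs (mitochondrially encoded mRNAs) of the core subunits of cytochrome c oxidase, complex IV of the respiratory chain. They were chosen by gene name, as 3 of the 35 mitochondrial genes and 3 of the 13 mt-mRNAs counted. RNA-seq was done on mitochondria isolated from HEK293T cells, a human embryonic kidney line, in 3 PDE12+/+ samples and 3 PDE12-/- samples numbered as repeats 1 to 3. PDE12 is a mitochondrial 3' to 5' exoribonuclease that removes A residues, and the comparison asked whether its absence altered the mitochondrial transcriptome. The PDE12-/- cells were made with zinc-finger nucleases and grown from single cells, so an effect of the genotype and a feature of a clone cannot be told apart. None of these 6 samples is labelled with an expressed transgene, and both genotypes had the same growth medium and range of passages. The labels do not say whether the repeats were separate cultures, so p-values measure the spread between these samples, which may be technical. The tables hold mitochondrial genes alone, so neither the PDE12 transcript nor markers of the cell line were analysed here.

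Cytochrome c oxidase takes electrons from cytochrome c, passes them to oxygen and pumps protons across the inner mitochondrial membrane. The MT-CO1 subunit holds the haem groups and the copper centre where oxygen is reduced, the MT-CO2 subunit holds the copper centre that first accepts electrons from cytochrome c, and the MT-CO3 subunit binds no redox metal. All of these mt-mRNAs are cut from a long precursor transcribed along the mitochondrial genome, largely at the mt-tRNAs that lie between them, and are then polyadenylated.

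In GRCh38 the genes lie on the + strand of chrM, the mitochondrial genome, and have no introns. MT-CO1 (ENST00000361624) spans chrM:5904-7445 and 1542 nt. It starts 12 bases after MT-TY, a mt-tRNA gene of the - strand, and is followed without a gap by MT-TS1, also of the - strand. MT-CO2 (ENST00000361739) spans chrM:7586-8269 and 684 nt, follows MT-TD directly and ends 25 bases before MT-TK. MT-CO3 (ENST00000362079) spans chrM:9207-9990 and 784 nt, shares 1 base with the end of MT-ATP6 and runs directly into MT-TG. The ends of the 3 genes are shown because they differ in how the reading frame closes and in what lies next to them. Each stretch is 30 bases of the + strand from the reference, with the start codon, the last codon or, for MT-CO3, the single base left after the last whole codon in capitals.
MT-CO1 start, chrM:5904-5933: ATGttcgccgaccgttgactattctctaca
MT-CO1 end, chrM:7416-7445: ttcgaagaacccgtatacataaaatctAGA
MT-CO2 start, chrM:7586-7615: ATGgcacatgcagcgcaagtaggtctacaa
MT-CO2 end, chrM:8240-8269: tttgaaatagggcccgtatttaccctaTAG
MT-CO3 start, chrM:9207-9236: ATGacccaccaatcacatgcctatcatata
MT-CO3 end, chrM:9961-9990: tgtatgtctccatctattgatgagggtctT
All 3 genes open with ATG. MT-CO2 closes with the stop codon TAG and MT-CO1 with AGA. MT-CO3 ends on a single T after its last whole codon, which polyadenylation of the transcript completes to a stop codon. Their GC contents were close to each other, at 46.2% in MT-CO1, 46.2% in MT-CO2 and 46.6% in MT-CO3. The frame of MT-CO1 has 10 lysine codons among 514 codons, 9 of them AAA. MT-CO2 has 4 among 228 and MT-CO3 has 3 among 261, all of them AAA.

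A stretch of the nuclear genome on chromosome 1 holds near copies of the 3 genes, which limits their counts. The GRCh38 copy of MT-CO1, MTCO1P12, at chr1:631074-632616, differs at 20 of 1542 aligned bases. MTCO2P12, at chr1:632757-633438, differs from MT-CO2 at 12 of 682, and MTCO3P12, at chr1:634376-634922, differs at 10 of 547 and covers 69.8% of MT-CO3. How reads that fit both places were counted is not given in the sources used here, and how many reads this touches was not tested. Copies of these 3 genes alone were looked for, so whether the limit also holds for other mt-mRNAs was not tested.

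Between 36338 and 104708 reads were counted per sample over all genes and both strands. PDE12-/- replicate 1 stood apart from the other PDE12-/- samples, with 10.1% of its mt-mRNA counts antisense against 4.32% and 5.89%. PDE12+/+ replicate 1, with the fewest counts, was also the highest of its genotype, at 6.99% against 5.17% and 4.84%. What the samples numbered 1 share was not tested. The TMM factors, edgeR's scaling for composition, ran from 0.777 in PDE12+/+ replicate 2 to 1.37 in PDE12-/- replicate 1. The differences in the shares, in the ratios of MT-CO1 and MT-CO2 to MT-CO3 and in the antisense shares are also given without that sample. So are the TMM-scaled fold changes of MT-CO1 and MT-CO2 and those of the antisense counts. Of the fits under other settings, only that with the replicate block was run without it, leaving out replicate 1 of both genotypes. Levels per kb and ratios to the summed 10 others are given with it only.

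MT-CO1 and MT-CO2 took a smaller share of all counts in PDE12-/- samples than in PDE12+/+ samples, and MT-CO3 did not. The sense counts of MT-CO1 were 37.9%, 38.4% and 36.9% of all counts in PDE12+/+ replicates 1 to 3, and 26.0%, 33.1% and 31.8% in PDE12-/- replicates 1 to 3. Every PDE12-/- sample lay below every PDE12+/+ sample, and replicate 1 was the lowest. The means were 37.7% ± 0.796 and 30.3% ± 3.79 (SD, n = 3 per genotype), a difference of -7.45 percentage points, with p = 0.1 in a two-sided exact permutation test over samples, the smallest p that 3 against 3 samples allow.

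The share of MT-CO2 was 12.6%, 11.8% and 12.4% in PDE12+/+ samples and 8.54%, 10.4% and 9.41% in PDE12-/- samples. It followed MT-CO1 in that the genotypes did not overlap and PDE12-/- replicate 1 was the lowest. The means were 12.3% ± 0.436 and 9.46% ± 0.940 (SD, n = 3), and the difference of -2.80 percentage points also had p = 0.1 in the exact permutation test.

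The share of MT-CO3 was 23.4%, 26.1% and 21.5% in PDE12+/+ samples and 28.3%, 25.1% and 24.0% in PDE12-/- samples. Here PDE12-/- replicate 1 was the highest of all 6 samples, and the genotypes overlapped. The difference of 2.13 percentage points had p = 0.4 in the exact permutation test. After Benjamini-Hochberg adjustment over all 70 features, which are the sense and antisense counts of the 35 genes, MT-CO1 and MT-CO2 each had an adjusted p = 0.5 in that test. A feature's share was lower in every PDE12-/- sample than in every PDE12+/+ sample in 2.86% of the 70 features, and MT-CO1 sense and MT-CO2 sense were the 2 features concerned. In either direction the genotypes did not overlap in 14 of the 70 features. Without PDE12-/- replicate 1 the differences were -5.30 percentage points for MT-CO1, -2.34 for MT-CO2 and 0.871 for MT-CO3.

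**Figure D1:**
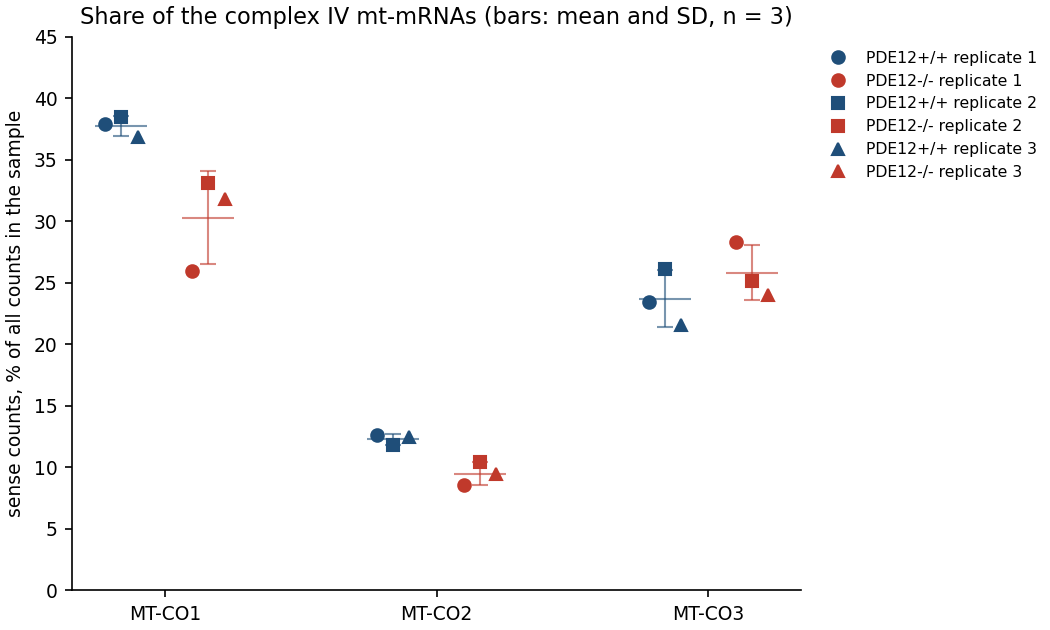
Sense counts of MT-CO1, MT-CO2 and MT-CO3 as a percentage of all counts (vertical axis) in each PDE12+/+ sample (blue) and PDE12-/- sample (red), with marker shapes for replicate numbers and bars for the mean and SD (n = 3). MT-CO1 and MT-CO2 lie lower in every PDE12-/- sample, while the MT-CO3 values of the genotypes overlap.

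The 3 mt-mRNAs together made up 73.9%, 76.3% and 70.8% of all counts in PDE12+/+ samples and 62.8%, 68.6% and 65.2% in PDE12-/- samples. MT-CO1 and MT-CO2 alone made up 50.5%, 50.2% and 49.3%, and 34.5%, 43.5% and 41.2%. The 10 other mt-mRNAs had 13.6%, 15.3% and 19.2% of the counts in PDE12+/+ samples and 23.7%, 23.9% and 25.2% in PDE12-/- samples. Since the shares of a sample sum to a fixed whole, a lower share of the abundant complex IV mt-mRNAs and a higher share of the others cannot be told apart from these values. Fewer mitochondria or fewer transcripts per mitochondrion cannot be told apart either.

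Per kb of gene, the complex IV mt-mRNAs were the 3 most abundant of the 13 in every sample, in the order MT-CO3, MT-CO1 and MT-CO2. The sense level of MT-CO3 was 302156 ± 29406 CPM (counts scaled to the same library total in every sample) per kb in PDE12+/+ and 329313 ± 28723 in PDE12-/- (SD, n = 3). That of MT-CO1 was 244732 ± 5165 and 196386 ± 24594, and that of MT-CO2 was 179249 ± 6371 and 138288 ± 13750. The level of MT-CO3 was 1.22, 1.34 and 1.15 times that of MT-CO1 in PDE12+/+ samples and 2.15, 1.49 and 1.48 times in PDE12-/- samples. The order was thus the same in all 6 samples, with wider steps between MT-CO3 and the others in PDE12-/-.

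Ratios within a sample do not depend on how samples are scaled to each other. The log2 ratio of MT-CO1 to MT-CO2 sense counts was 1.59, 1.71 and 1.57 in PDE12+/+ samples and 1.60, 1.67 and 1.76 in PDE12-/- samples. These values overlapped and differed by 0.05 between the genotype means, with p = 0.5 in the exact permutation test. The SD of this ratio over all 6 samples was 0.0738, the smallest among the 78 pairs of mt-mRNAs. Counting error alone gave a standard error of at most 0.0246 in a sample.

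The log2 ratio of MT-CO1 to MT-CO3 was 0.69, 0.56 and 0.78 in PDE12+/+ samples and -0.13, 0.40 and 0.41 in PDE12-/- samples. All PDE12-/- samples lay below all PDE12+/+ samples, and in PDE12-/- replicate 1 MT-CO3 had more counts than MT-CO1. The means differed by -0.45. For MT-CO2 to MT-CO3 the log2 ratio was -0.89, -1.15 and -0.79 in PDE12+/+ samples and -1.73, -1.27 and -1.35 in PDE12-/- samples, again without overlap, and the means differed by -0.50. In replicate 2 the drop was small, at -0.16 for MT-CO1 to MT-CO3 and -0.12 for MT-CO2 to MT-CO3. Both differences had p = 0.1 in the exact permutation test and an adjusted p = 0.229 in that test over the 78 pairs. The genotypes did not overlap in 43.6% of the 78 pairs. Without PDE12-/- replicate 1 the differences were -0.27 and -0.36.

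**Figure D2:**
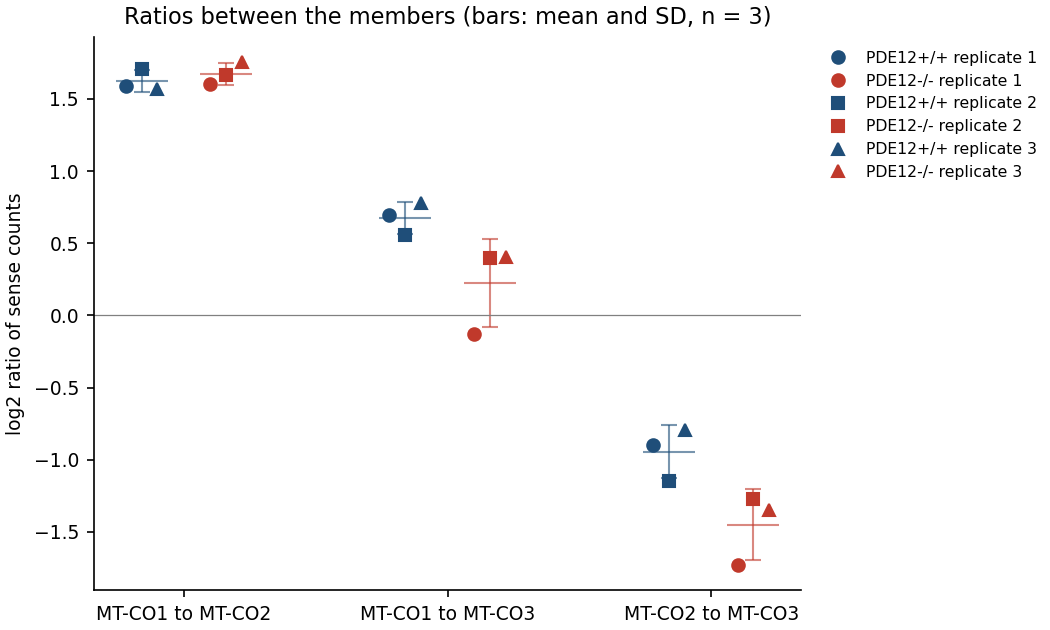
Log2 ratios of sense counts (vertical axis) between MT-CO1, MT-CO2 and MT-CO3 in each PDE12+/+ sample (blue) and PDE12-/- sample (red), with bars for the mean and SD (n = 3). MT-CO1 to MT-CO2 stays between 1.57 and 1.76 in all samples, while both ratios to MT-CO3 are lower in every PDE12-/- sample.

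The other mt-mRNAs are those of complex I (the MT-ND genes), complex III (MT-CYB) and ATP synthase (MT-ATP6 and MT-ATP8). Against them MT-CO1 and MT-CO2 had lower ratios in PDE12-/- samples, while most ratios of MT-CO3 overlapped between the genotypes. Of the 30 ratios of a complex IV mt-mRNA to 1 of the 10 others, 29 had a lower mean in PDE12-/-, and 21 were lower in every PDE12-/- sample than in every PDE12+/+ sample. These 21 were 8 of 10 for MT-CO1, 9 of 10 for MT-CO2 and 4 of 10 for MT-CO3. Among the 45 pairs of the 10 others the genotypes did not overlap in 24.4%. Over all 78 pairs they did not overlap in 43.6%, in either direction, and the 40.0% of MT-CO3 was near that share. The 30 ratios share their numerators and denominators and are not independent. The lowest adjusted p among them was 0.229 in the exact permutation test over the 78 pairs.

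MT-CO1 had 2.78, 2.51 and 1.92 times the summed sense counts of the 10 others in PDE12+/+ samples and 1.10, 1.39 and 1.26 times in PDE12-/- samples. MT-CO2 had 0.925, 0.769 and 0.648 times that sum, and 0.361, 0.436 and 0.373 times. MT-CO3 had 1.72, 1.71 and 1.12 times, and 1.20, 1.05 and 0.952 times. The genotypes did not overlap for MT-CO1 and MT-CO2, and for MT-CO3 the value of PDE12+/+ replicate 3 lay below that of PDE12-/- replicate 1. On the log2 scale the means differed by -0.94 for MT-CO1, -0.99 for MT-CO2 and -0.49 for MT-CO3, with p = 0.1, 0.1 and 0.2 in the exact permutation test.

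The largest differences were against MT-ND2, which encodes a subunit of the membrane arm of complex I. The log2 ratio of MT-CO1 to MT-ND2 was 5.93, 6.02 and 5.32 in PDE12+/+ samples and 3.94, 4.61 and 4.33 in PDE12-/- samples. For MT-CO2 to MT-ND2 the values were 4.35, 4.31 and 3.75, and 2.34, 2.94 and 2.57. The differences between means were -1.47 for MT-CO1, -1.52 for MT-CO2 and -1.02 for MT-CO3, and the genotypes did not overlap in any of them. MT-ATP6, a subunit of the proton channel of ATP synthase and the gene that ends where MT-CO3 starts, came next, with -1.13 for MT-CO1, -1.18 for MT-CO2 and -0.67 for MT-CO3. MT-CO3 and MT-ATP6 thus did not keep a fixed ratio, although the genes adjoin. MT-ND2 itself had a higher mean log2 ratio in PDE12-/- to every other mt-mRNA outside complex IV. The differences ran from 0.34 for MT-ATP6 to 1.05 for MT-ND6, and the genotypes overlapped for MT-ATP8 and MT-CYB. The differences of the complex IV mt-mRNAs against MT-ND2 thus include a shift of MT-ND2 against the rest.

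The mt-mRNA whose counts ran most closely with MT-CO3 was MT-ND6, the only mt-mRNA gene of the - strand, and not MT-CO1 or MT-CO2. The log2 ratio of MT-CO3 to MT-ND6 was 5.98, 5.68 and 5.80 in PDE12+/+ samples and 5.73, 5.99 and 5.83 in PDE12-/- samples, with an SD of 0.128 over the 6 samples. MT-ND6 had few reads, and the counting error of the ratio was as large as 0.125 in a sample. Next came MT-ND3 with an SD of 0.236, while MT-CO3 to MT-CO1 had 0.321 and MT-CO3 to MT-CO2 had 0.337. For both MT-CO1 and MT-CO2 the closest outside complex IV was also MT-ND6, with SDs of 0.377 and 0.395. These SDs describe 6 samples of both genotypes, and the counts of a sample share its library and depth.

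**Figure D3:**
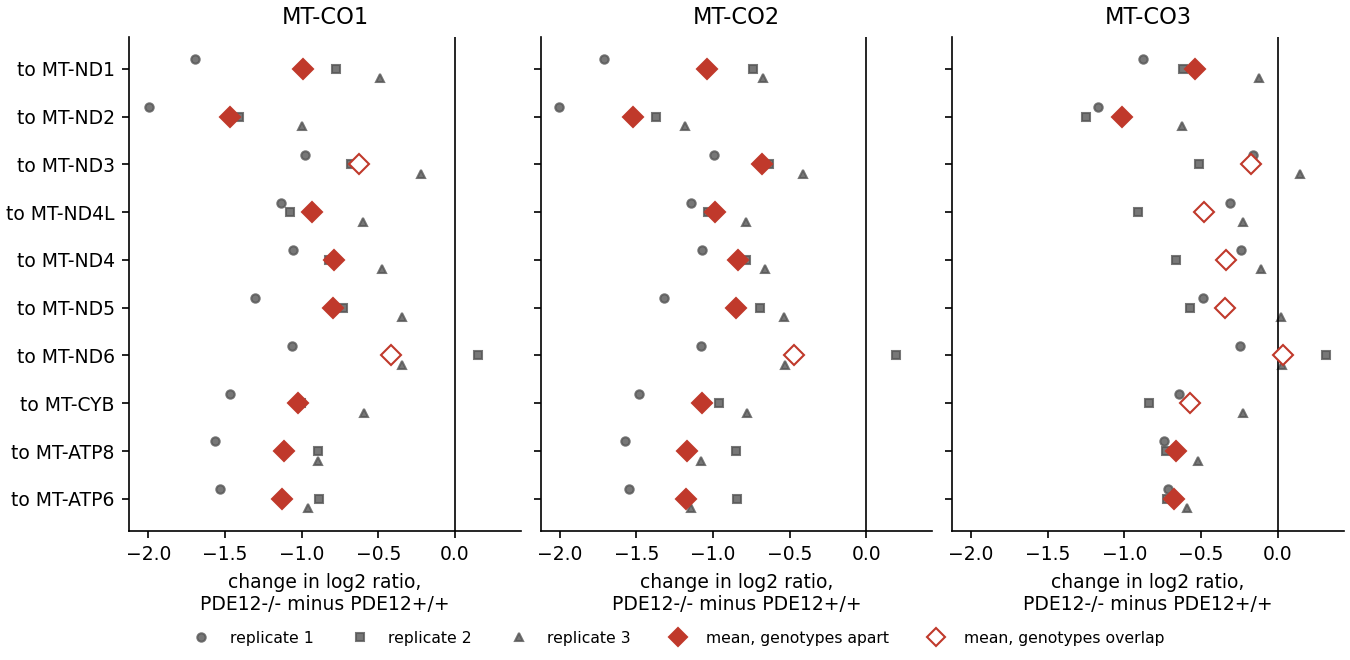
Change in log2 ratio of MT-CO1, MT-CO2 and MT-CO3 (panels) to each of the 10 other mt-mRNAs (rows), PDE12-/- minus PDE12+/+, on the horizontal axis, with grey markers for the 3 same-numbered pairs and red diamonds for the difference of means, filled where the genotypes do not overlap. All means but that of MT-CO3 to MT-ND6 lie below 0, and those to MT-ND2 lie farthest left.

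A test across all 70 features with counts scaled between samples did not call any of the 3 mt-mRNAs when genotype was fitted alone. In TMM-scaled CPM the sense level of MT-CO1 was 347126, 494558 and 400898 in PDE12+/+ samples and 189418, 382671 and 294151 in PDE12-/- samples. The genotypes overlapped on this scale, since PDE12-/- replicate 2 lay above PDE12+/+ replicate 1. They overlapped for MT-CO2 and MT-CO3 as well, while 8.57% of the 70 features were lower in every PDE12-/- sample on this scale. The log2 fold change of PDE12-/- over PDE12+/+ was -0.52 (SE 0.34) with an adjusted p = 0.726 in the quasi-likelihood test of edgeR (Benjamini-Hochberg adjusted over the 70 features). It was -0.29 without PDE12-/- replicate 1 and -0.31 without PDE12+/+ replicate 3.

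MT-CO2 had a mean of 133925 ± 18020 TMM-scaled CPM in PDE12+/+ and 89977 ± 29225 in PDE12-/- (SD, n = 3), and MT-CO3 had 261525 ± 65190 and 239760 ± 44712. In the same edgeR test the log2 fold changes were -0.57 (SE 0.34, adjusted p = 0.726) for MT-CO2 and -0.13 (SE 0.34, adjusted p = 0.991) for MT-CO3. That of MT-CO2 was -0.37 without PDE12-/- replicate 1 and -0.34 without PDE12+/+ replicate 3, and that of MT-CO3 was 0.10 without PDE12+/+ replicate 2 and 0.02 without PDE12+/+ replicate 3. Of the 70 features 0 passed an adjusted p of 0.05 (0.0%), while 5 had an unadjusted p below 0.05, and DESeq2 called 0 with 3 below 0.05 unadjusted. Of the 10 other sense mt-mRNAs 9 had a positive log2 fold change and 1 a negative one, with a median of 0.39 against -0.02 over all features, and 0 passed the threshold.

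With the replicate number as a block, which compares same-numbered samples, MT-CO1 and MT-CO2 passed the threshold and MT-CO3 did not. In that edgeR quasi-likelihood test MT-CO1 fell by 0.56 on the log2 scale (SE 0.11, adjusted p = 5.49e-05) and MT-CO2 fell by 0.62 (SE 0.15, adjusted p = 0.00307). The log2 fold change of MT-CO3 was -0.11 (SE 0.12, adjusted p = 0.734). The block called 4 features, 5.71% of the 70, and 3 of them (4.29%) were lower. The other calls were MT-ND2, which rose by 0.90, and the antisense counts of MT-TN, a mt-tRNA gene, which fell by 0.87. The calls of MT-CO1 and MT-CO2 rested on further settings. Without an abundance trend in the quasi-dispersion, which is edgeR's allowance for spread beyond the model, the blocked edgeR fold changes stayed at -0.56 and -0.62 with adjusted p-values of 0.143 and 0.0974, and in DESeq2 with the block they were -0.44 and -0.50 with 0.139 and 0.115. In blocked edgeR fits that left out a replicate number from both genotypes, the log2 fold changes of MT-CO1 and MT-CO2 were -0.36 and -0.43 without replicate 1 (adjusted p = 0.422 for both), -0.66 and -0.76 without replicate 2 (adjusted p = 0.0401 for both) and -0.51 and -0.50 without replicate 3 (adjusted p = 0.915 for both).

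The size of the difference depended on the scaling, while the order of the 3 did not. With library totals in place of TMM, the log2 fold changes were -0.32 for MT-CO1, -0.37 for MT-CO2 and 0.12 for MT-CO3, with edgeR adjusted p-values of 0.0635, 0.187 and 0.746, and this test called 2.86% of the 70 features. With the 10 other mt-mRNAs as library size, MT-CO1 fell by 0.95 and MT-CO2 by 1.00 (edgeR adjusted p = 0.00310 and 0.00318), and MT-CO3 had -0.51 (adjusted p = 0.108), where 4.29% of the 70 features were called. With the replicate block added to this scaling MT-CO3 passed as well, falling by 0.49 on the log2 scale (edgeR adjusted p = 0.0139), where 10 of the 70 features (14.3%) were called, all of them lower. In a fit of the 13 sense mt-mRNAs alone MT-CO1 fell by 0.62 and MT-CO2 by 0.68 (edgeR adjusted p = 0.000185 and 0.00322), and MT-CO3 had -0.19 (adjusted p = 0.279), where 23.1% of the 13 were called and 15.4% were called lower. The median log2 fold change of all 70 features was -0.02 with TMM, 0.20 with library totals and -0.33 with the 10 other mt-mRNAs as library size. In each of these fits MT-CO1 and MT-CO2 lay below that median, and MT-CO3 lay between them and it.

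**Figure D4:**
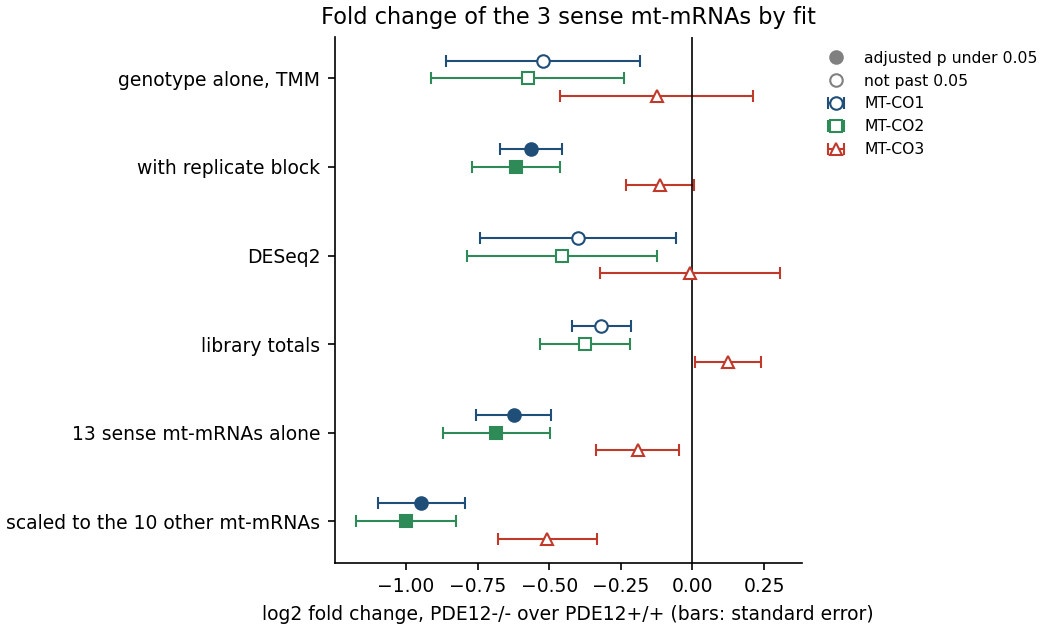
Log2 fold change of MT-CO1, MT-CO2 and MT-CO3 sense counts, PDE12-/- over PDE12+/+ (horizontal axis), with the standard error, in 6 fits across features, filled where the adjusted p is under 0.05. MT-CO1 and MT-CO2 lie together and left of MT-CO3 in every fit, MT-CO3 changes sign with library totals, and the filled points depend on the fit.

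Antisense counts of the 3 genes, reads assigned to the strand opposite the mRNA, were a small share of each gene's counts. How many of them were sense reads assigned to the wrong strand was not tested. The difference between the genotype means rested mainly on PDE12-/- replicate 1. The antisense share of MT-CO1, its antisense counts as a percentage of its counts on both strands, was 2.11%, 0.974% and 0.899% in PDE12+/+ samples and 4.73%, 1.15% and 1.78% in PDE12-/- samples. For MT-CO2 it was 2.14%, 1.29% and 1.08%, and 6.35%, 1.40% and 2.19%. For MT-CO3 it was 2.32%, 1.06% and 1.58%, and 3.23%, 0.965% and 1.61%. PDE12+/+ replicate 1 was the highest of its genotype for all 3 genes. PDE12-/- replicate 1 was the highest of the 6 samples for all 3 genes, and the genotypes overlapped for each of them. Its 95% Wilson intervals, 4.44 to 5.05% for MT-CO1, 5.77 to 6.99% for MT-CO2 and 3.00 to 3.49% for MT-CO3, lay above those of every other sample and cover counting error only.

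The mean antisense share of MT-CO1 was 1.33% ± 0.679 in PDE12+/+ and 2.55% ± 1.92 in PDE12-/- (SD, n = 3). That of MT-CO2 was 1.50% ± 0.558 against 3.32% ± 2.66, while MT-CO3 had 1.65% ± 0.634 against 1.94% ± 1.17. The differences of 1.22, 1.81 and 0.285 percentage points had p = 0.5, 0.2 and 0.8 in the exact permutation test, with adjusted p = 1.0 over the 34 genes with counts in every sample. The genotypes did not overlap in 8.82% of those genes. Without PDE12-/- replicate 1 the differences were 0.133 for MT-CO1, 0.291 for MT-CO2 and -0.364 for MT-CO3. Antisense counts in the edgeR fit had log2 fold changes of 0.27 for MT-CO1, 0.41 for MT-CO2 and 0.11 for MT-CO3, with adjusted p-values of 0.944, 0.784 and 0.991, and without PDE12-/- replicate 1 these became -0.12, -0.11 and -0.35.

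In all 6 samples the complex IV genes were among the 5 of 13 mt-mRNA genes with the lowest antisense share. In PDE12+/+ samples MT-CO1 was the lowest and MT-CO2 and MT-CO3 held the next places. In PDE12-/- samples MT-CO3 was the lowest or next to it, MT-CO1 was at place 3 and MT-CO2 at place 4 or 5. MT-ATP6, which adjoins MT-CO3, was among these 5 in every sample as well. It was at places 4, 5 and 4 in PDE12+/+ samples and 2, 2 and 1 in PDE12-/- samples. The 10 other mt-mRNA genes, MT-ATP6 among them, ranged from 1.05% to 53.9% over all samples. A low share reflects many sense counts as well as few antisense counts. Per kb, the antisense level of MT-CO1 was 3308 ± 1731 CPM in PDE12+/+ and 4862 ± 3100 in PDE12-/- (SD, n = 3), that of MT-CO2 was 2754 ± 1107 and 4574 ± 3410, and that of MT-CO3 was 5017 ± 1845 and 6736 ± 4723. These lay within the range of the 10 other genes, whose means ran from 926 in MT-ATP8 to 11217 in MT-CYB in PDE12+/+.

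Most mt-tRNA genes that flank the complex IV genes had few reads, so read-through between them was not compared. Why they had few reads was not tested. Summed over the 6 samples, MT-TS1 had 12 sense and 16 antisense counts, MT-TD had 6 and 16, MT-TK had 14 and 16, and MT-TG had 14 and 83. MT-TY, on the strand opposite MT-CO1, was different, with 84 sense and 2102 antisense counts. Its antisense reads come from the strand of MT-CO1, which starts 12 bases further on, and whether they belong to transcripts that continue into MT-CO1 was not tested. MT-ATP8 had 1900 sense and 72 antisense counts and MT-ATP6 had 21161 and 484.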

How the data were processed

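Per the labels and the study's methods, RNA of isolated mitochondria was depleted of rRNA, made into stranded libraries (TruSeq Stranded Total RNA) and sequenced in pairs on a MiSeq. The authors trimmed reads with Trim Galore, kept pairs with mates over 20 nt, used Bowtie2 to map them to GRCh38, discarded those on mt-rRNAs, parted strands with SAMtools and counted with Rsubread. Raw counts per gene and strand were deposited; tool versions and counting settings are not given in the sources used here. A further 6 tables of 3' end sequencing (MPAT-Seq) were not used here.

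Sense and antisense counts of 35 genes (70 features) were made with GENCODE release 44 strands, taking the deposited strand columns to be genome strands. Members, lists and tests were chosen with earlier results of these data known. Counts were fitted with edgeR 4.0.16 (R 4.3.3, TMM, common dispersion, quasi-likelihood test, no filter) on genotype alone, with a threshold of 0.05 on the Benjamini-Hochberg adjusted p-value over all features. Shares, log2 ratios (78 pairs of 13 mt-mRNAs) and antisense shares were compared with two-sided exact permutation tests in SciPy 1.17.1. On 20 simulated data sets of 70 features for this comparison, the fit recovered 47% of 2-fold and 99% of 4-fold changes and called 0.583% of unchanged features, and with the block 75%, 100% and 1.42%. The changed features were drawn only from those with higher mean counts. Counts were simulated with the common dispersion of the fit itself, and for the block with an added replicate effect of a chosen size. The recovery rates thus do not cover features with few counts, and no rate covers spread beyond that model. Replicate numbers of the labels were taken as pairs, since deviations of same-numbered samples from their group means correlated at 0.613, 0.250 and 0.345 over 37 features; a crossed pairing gave a mean of 0.368 against 0.402, and the labels do not say what a number marks. Totals of 36338 to 104708 counts per sample set the precision, and Wilson intervals (95%) cover counting error only. Named beside the 3 genes are the 2 mt-mRNAs with the smallest SD of the ratio and those with the largest genotype difference, the flanking genes and any feature past the threshold. Alternatives were DESeq2 1.42.0, other scalings, features, dispersions and filters (at least 10 counts in every sample), other denominators, summed strands, the replicate block and leaving out each sample. Those chosen after seeing the data were the fits without an abundance trend, the blocked fits under other settings, in DESeq2 or without a replicate number, and the count of 30 ratios under its alternatives.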

Additional observations from a re-analysis of the deposited data

How the results depend on the processing

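The log2 fold changes of MT-CO1 and MT-CO2 stayed negative in every fit run, and their calls did not. Of 70 features 0 passed in edgeR on genotype alone, against 2 with library totals, 3 scaled to the 10 other mt-mRNAs, 3 of 13 with the sense mt-mRNAs alone, 4 with the replicate block, 4 with the block and trended dispersion, 3 with the block and library totals, 2 with the block and no abundance trend, 7 of 13 with the block and the sense mt-mRNAs alone, 10 with the block scaled to the 10 others, 3 in DESeq2 with the block, and 2 with the block without replicate 2; leaving out each sample gave 0 each time. MT-CO1 passed at -0.95 scaled to the 10 others, -0.62 with the 13 alone, -0.56 with the block under either dispersion, -0.64 with the block and the 13 alone, -0.94 with the block scaled to the 10 others and -0.66 with the block without replicate 2. MT-CO2 passed in the same fits, where it fell by 1.00 in the first and had -0.68, -0.62, -0.69, -0.99 and -0.76 in the rest. MT-CO3 passed only with the block scaled to the 10 others (-0.49, adjusted p = 0.0139). The cause of these differences was not tested.

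MT-CO3 turned positive with library totals (0.12, with the block 0.13), at least 10 counts in every sample (0.050), DESeq2 with the block (0.0061), without PDE12+/+ replicate 2 (0.10) and without PDE12+/+ replicate 3 (0.02), and ranged from -0.29 to 0.10 when samples were left out. MT-CO1 then ranged from -0.78 to -0.29 and MT-CO2 from -0.84 to -0.34, with PDE12-/- replicates 1 and 2 and PDE12+/+ replicate 3 moving them most. Antisense fold changes of MT-CO1, MT-CO2 and MT-CO3 were -0.12, -0.11 and -0.35 without PDE12-/- replicate 1, -0.12, -0.056 and -0.35 with the block scaled to the 10 others, -0.12 for MT-CO1 and -0.22 for MT-CO3 scaled to the 10 others, and -0.15 for MT-CO3 with the block without replicate 1; ranges when samples were left out were -0.12 to 0.59, -0.11 to 0.64 and -0.35 to 0.35. The log2 ratio of MT-CO3 to MT-ND6 was -0.029 with strands summed and -0.039 to 0.11 when samples were left out. The antisense share of MT-CO3 ranged from -0.364 to 0.771 percentage points, negative without PDE12+/+ replicate 2 (-0.0121) and PDE12-/- replicate 1.

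Shares and ratios of the 3 mt-mRNAs to each other kept their direction under every alternative run. With the pairs taken as a block, an exact sign-flip test gave p = 0.25 for the shares of MT-CO1 (-7.45 percentage points) and MT-CO2 (-2.80), the smallest that 3 pairs allow, so this test could not pass the threshold. The number of the 30 ratios without overlap was 23 with strands summed and 22 to 25 when samples were left out. Groups that lie apart stay apart when a sample is left out, so that number could only stay or rise. The range when samples were left out thus does not test how firm it is. The flanking mt-tRNA genes had few reads in any sample except on the antisense strand of MT-TY, and the reason was not tested.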
